A study of Homo sapiens with 24 samples.

Results

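The miR-181 family is described here through its 10 mature products, matched in the tables by miRBase identifier: miR-181a-5p (MIMAT0000256), miR-181b-5p (MIMAT0000257), miR-181c-5p (MIMAT0000258) and miR-181d-5p (MIMAT0002821) from the 5p arms of the hairpins, and miR-181a-1-3p (MIMAT0000270), miR-181a-2-3p (MIMAT0004558), miR-181b-1-3p (MIMAT0022692), miR-181b-2-3p (MIMAT0031893), miR-181c-3p (MIMAT0004559) and miR-181d-3p (MIMAT0026608) from the 3p arms. They are 10 of the 2652 mature miRNAs in the tables and lie at 12 of the 2883 counted positions, because miR-181a-5p and miR-181b-5p each come from a pair of hairpins. The rule for membership used names and positions and no measured value.

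Small RNA was sequenced from SBC-3, a human small cell lung cancer line, after transient knockdown with small interfering RNAs (siRNAs) or antisense oligonucleotides (ASOs). Each reagent was given by reverse transfection with a lipid reagent at 10 nM, and RNA was taken after 72 h. The 8 groups held 3 libraries each. They were siCtrl, a control siRNA; siSFPQ-2 and siSFPQ-3, both aimed at SFPQ; siNONO-3 and siNONO-4, both aimed at NONO; ASO-Ctrl, a control ASO; and ASO-NEAT1-1047 with ASO-NEAT1-1473, both aimed at the long noncoding RNA NEAT1. SFPQ and NONO are nuclear RNA-binding proteins that form heterodimers and are components of paraspeckles, nuclear bodies built on NEAT1. The study asked how loss of each of the 3 changes miRNA levels. The RNAs of SFPQ, NONO and NEAT1 are not in these small RNA tables, so the knockdowns themselves were not checked here. All groups share one cell line, and nothing in the labels says whether the 3 libraries of a group came from separate cultures. The p-values therefore measure the spread between libraries, which may be technical.

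As background, a miRNA hairpin is cut by Drosha in the nucleus and by Dicer in the cytoplasm into a duplex of a 5p and a 3p product, of which one strand is usually retained by an Argonaute protein. The retained strand finds its target mRNAs mainly through its seed, bases 2 to 8. miR-181 is best known from lymphoid cells, where miR-181a tunes T cell receptor signalling and thymocyte development, and it is also expressed in brain and in many tumours. Since hairpins of a cluster are usually cut from a common primary transcript, products that belong to 1 cluster only can report on that transcript, whereas products shared by clusters report their sum.

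The 6 hairpins lie in 3 clusters, with positions given on the hg38 build. MIR181B1 and MIR181A1 lie on the minus strand of chromosome 1, at 198858873 to 198859153, with 61 bases between them, in an intron of the long noncoding host gene MIR181A1HG. MIR181A2 and MIR181B2 lie on the plus strand of chromosome 9, at 124692442 to 124693798, with 1158 bases between them, in an intron of the host gene MIR181A2HG, and within NR6A1, a protein-coding gene of the opposite strand. MIR181C and MIR181D lie on the plus strand of chromosome 19, at 13874699 to 13875011, with 66 bases between them, in an intron of NANOS3 in the GENCODE v29 annotation. None of the 12 mature positions overlapped an annotated exon of another gene.

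The mature sequences are shown because their likeness sets which clusters the counts can tell apart. They are RefSeq's, on GRCh38.p14, written 5′ to 3′ with the seed in capitals. The 5p products share 1 seed.
miR-181a-5p: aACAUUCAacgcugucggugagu
miR-181b-5p: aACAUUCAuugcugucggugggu
miR-181c-5p: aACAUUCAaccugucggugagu
miR-181d-5p: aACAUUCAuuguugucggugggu
The 3p products carry 5 different seeds, of which miR-181b-1-3p and miR-181b-2-3p share 1.
miR-181a-1-3p: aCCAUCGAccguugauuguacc
miR-181c-3p: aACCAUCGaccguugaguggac
miR-181a-2-3p: aCCACUGAccguugacuguacc
miR-181b-1-3p: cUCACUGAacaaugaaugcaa
miR-181b-2-3p: cUCACUGAucaaugaaugca
miR-181d-3p: cCACCGGGggaugaaugucac

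The seed of the 5p arms was found in 5 of the 2370 mature miRNA names of the RefSeq table. Beside the 4 miR-181 products it is carried by miR-4262, which had 0 counts in all 24 libraries. miR-181c-3p starts 1 base earlier than miR-181a-1-3p, so the same letters give it a shifted seed. Over the 21 bases they share, these products differ by U16G and U19G, counted from the 5′ end of miR-181a-1-3p. miR-181b-5p and miR-181d-5p differ by C12U alone, and miR-181b-1-3p and miR-181b-2-3p by A9U alone over their common 20 bases. By contrast, miR-181a-1-3p and miR-181a-2-3p differ by U5C, C6U and U16C, of which U5C and C6U fall in the seed.

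Near-identical products had near-identical counts. The 2 positions of miR-181a-5p, on chromosomes 1 and 9, held the same count in 20 of 24 libraries and never differed by more than 1. The 2 positions of miR-181b-5p held 5500 and 5610 counts over all libraries. miR-181a-1-3p and miR-181c-3p held 1086 and 1084 counts and differed by at most 3 counts in any library, although they come from chromosomes 1 and 19. miR-181d-5p had 0.852 to 0.970 times the count of miR-181b-5p in every library, and miR-181b-1-3p and miR-181b-2-3p, with 295 and 340 counts, differed by at most 7. miR-181a-1-3p and miR-181a-2-3p did not track each other in this way, since the second had 1.51 to 14.7 times the count of the first. Within these pairs the source hairpin cannot be told from the counts. The 10 products thus amount to 7 separable signals, namely miR-181a-5p, miR-181b-5p with miR-181d-5p, miR-181c-5p, miR-181c-3p together with miR-181a-1-3p, miR-181a-2-3p, miR-181b-1-3p with miR-181b-2-3p, and miR-181d-3p. Of these, miR-181a-2-3p marks the chromosome 9 cluster alone, and miR-181c-5p and miR-181d-3p mark the chromosome 19 cluster alone. No separable signal marks the chromosome 1 cluster alone.

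**Figure D1:**
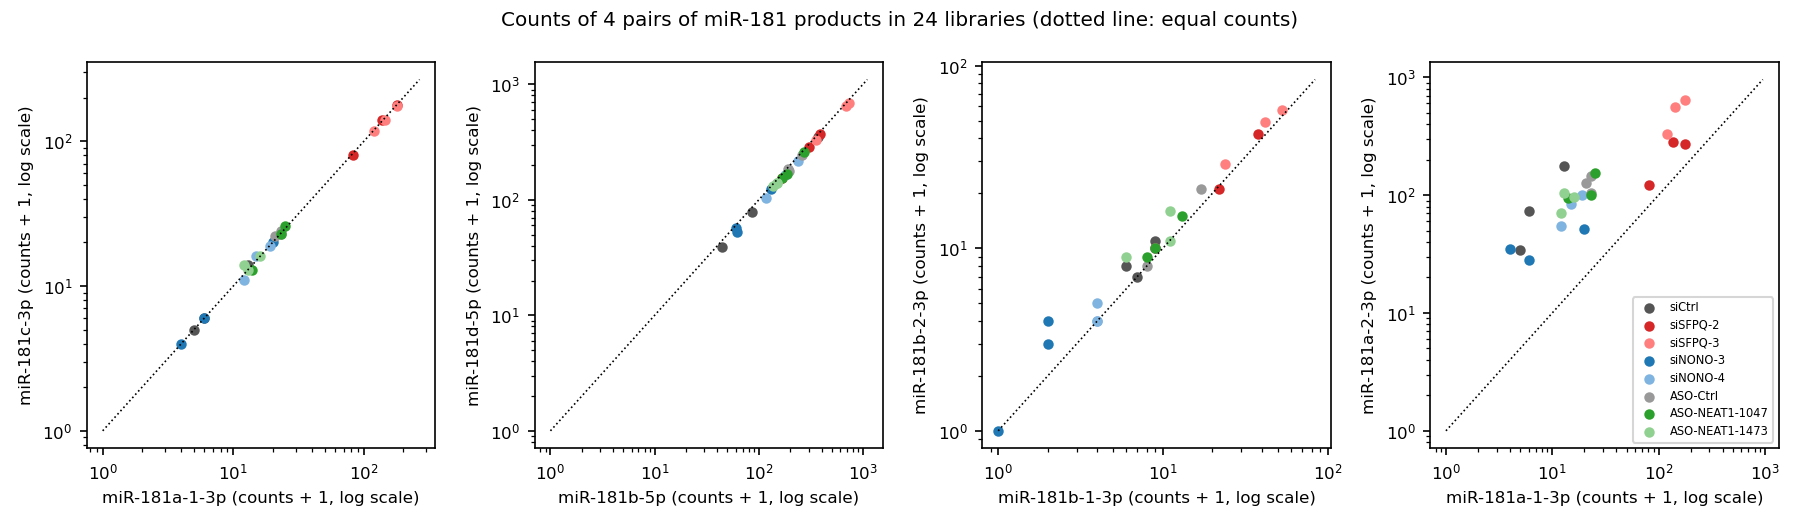
Counts plus 1 of 4 pairs of miR-181 products, on log axes, with 1 point per library coloured by group and a dotted line at equal counts. The first 3 pairs lie along the line, with differences of at most 3 counts for miR-181a-1-3p and miR-181c-3p, whereas miR-181a-1-3p and miR-181a-2-3p leave it.

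The libraries held 2038382 to 4279644 counts over mature miRNAs. A filter on low counts kept 626 miRNAs for testing, among them 9 of the 10 products. miR-181d-3p, the 3p product of MIR181D, had 10 counts in all, in 6 of 24 libraries and at most 2 in any of them, and was not tested. siCtrl replicate 1 stood apart from siCtrl replicates 2 and 3 on the second principal component, at 11.7 against -8.18 and -7.74, and 113 of the 626 tested miRNAs, 18.1%, had at least 2 times the mean CPM of the other two there. On that component siCtrl replicate 1 was the highest and siCtrl replicate 2 the lowest of all 24 libraries. Because siCtrl replicate 1 also carries miR-181 products at high levels, the changes with SFPQ and NONO knockdown are given below with and without it. The comparisons of a single siRNA with siCtrl were not repeated without it. The cells were checked against 2 lists of miRNAs. Of 8 blood and lymphoid miRNAs, miR-150-5p, miR-155-5p, miR-223-3p, miR-451a and miR-144-3p had only 5 to 29 counts over all libraries and were not tested. The other 3, led by miR-146a-5p, were tested and none passed in any of the SFPQ, NONO and NEAT1 comparisons. The summed level of the 8 was 318 to 641 CPM in siCtrl, 299.8 to 516 CPM with the SFPQ siRNAs and 431 to 717 CPM with the NONO siRNAs. Of 6 neuroendocrine and neural miRNAs, 5 were tested, and miR-9-5p, a neural miRNA, averaged 84035 CPM. With SFPQ knockdown 1 of these 5 rose and 2 fell, against 25.6% of all tested miRNAs called higher and 22.7% lower. With NONO or NEAT1 knockdown none passed. The riser, miR-375-3p, was sparse, at a mean of 2.32 CPM and 200 counts over all libraries. With SFPQ knockdown miR-375-3p rose (log2 fold change 2.99 ± 0.63, SE, adjusted p = 5.16e-04), and miR-7-5p fell by 0.69 ± 0.12 (adjusted p = 7.88e-05) and miR-9-5p fell by 0.65 ± 0.12 (adjusted p = 1.69e-04) on that scale. This list summed to 101454 to 113879 CPM in siCtrl and to 59421 to 80523 CPM with the SFPQ siRNAs. Its part in the miR-181 values was not tested.

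All levels below are CPM, that is, counts relative to library sizes scaled by edgeR's TMM factors. The products are 20 to 23 bases long, so CPM was not divided by length. The family was of middling abundance in these cells. Over all libraries miR-181b-5p averaged 68.4 CPM and ranked 238 of 626, miR-181d-5p 63.8 CPM (rank 244), miR-181a-5p 52.0 CPM (rank 261) and miR-181a-2-3p 45.5 CPM (rank 270). miR-181a-1-3p and miR-181c-3p averaged 12.8 CPM each (ranks 369 and 370), and miR-181c-5p, miR-181b-2-3p and miR-181b-1-3p averaged 4.62, 4.10 and 3.54 CPM (ranks 483, 492 and 515). The pool of 5p products with the common seed, counting miR-181b-5p and miR-181d-5p once, was largest with the SFPQ siRNAs, at 127 to 235 CPM with siSFPQ-2 and 165 to 292 CPM with siSFPQ-3. It was 42.9, 58.5 and 225 CPM in siCtrl, of which 225 CPM was in replicate 1, and 43.4 to 59.5 CPM with siNONO-3.

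The SFPQ siRNAs gave the 2 highest group means for each of the 9 tested products. siNONO-3 gave the lowest mean for 7 of them, the exceptions being miR-181a-1-3p and miR-181c-5p, which were lowest in siCtrl. Most neighbouring groups in these orders overlapped. For miR-181a-1-3p the 1 gap in the order lay below the SFPQ siRNAs. In the order for miR-181a-2-3p, siNONO-4 lay apart from its upper neighbour ASO-NEAT1-1047, and siNONO-3 lay apart from siNONO-4. There siSFPQ-3 barely cleared siSFPQ-2, with a lowest value of 85.81 CPM against a highest of 85.70 CPM. For miR-181c-5p every neighbouring pair of groups overlapped.

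**Figure D2:**
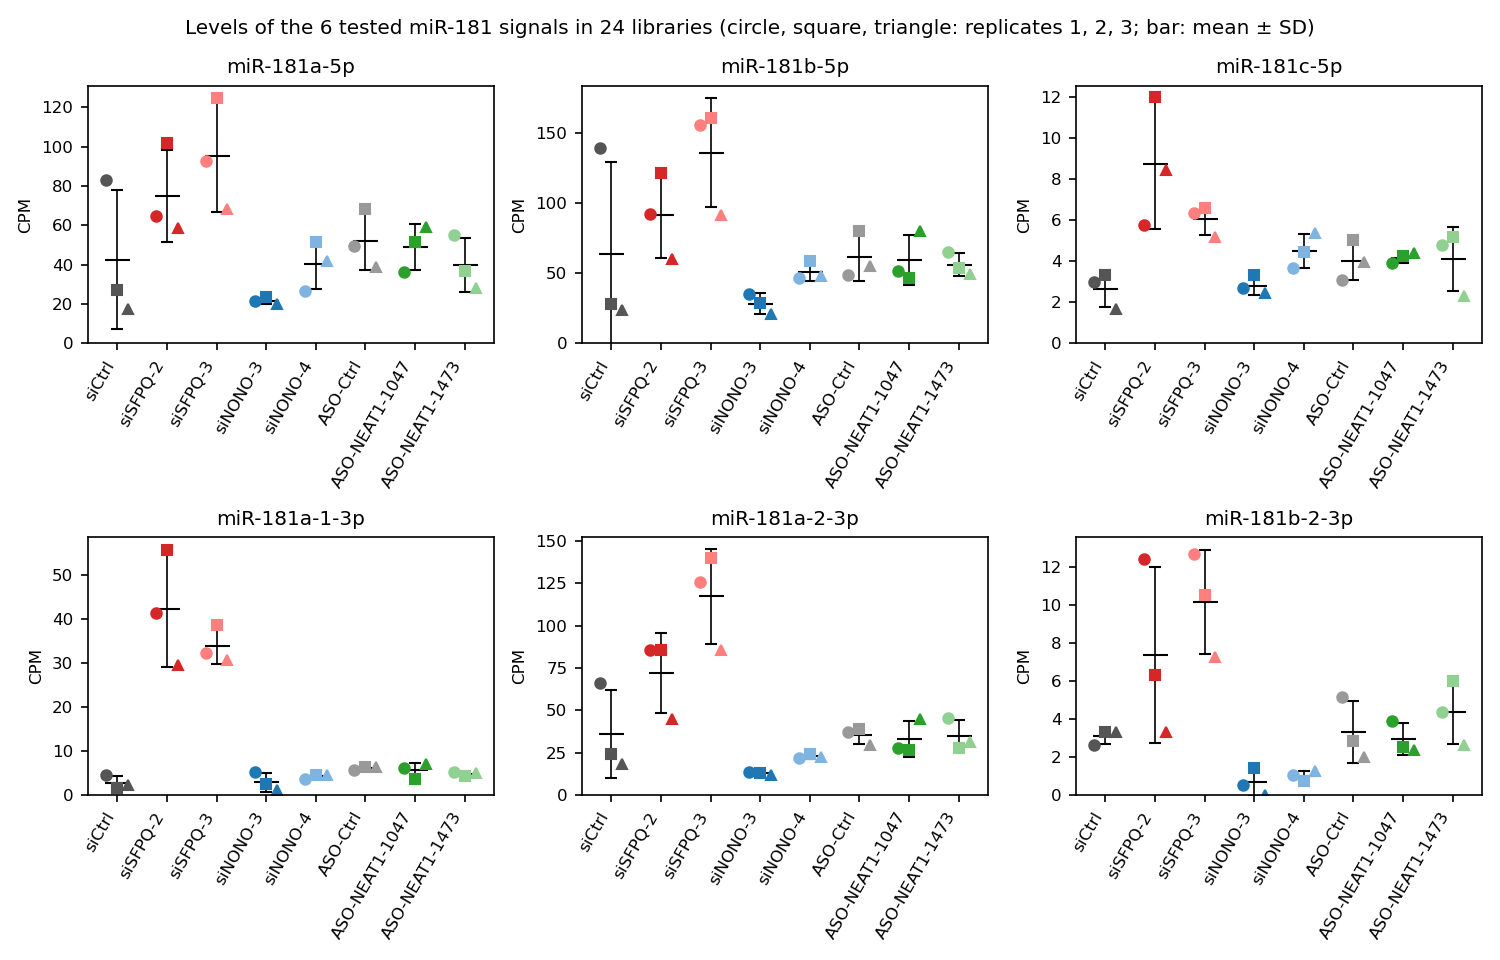
CPM on linear axes of 1 product for each of the 6 tested signals, by group, with points for the 3 libraries and bars for mean ± SD (n = 3). The SFPQ siRNA libraries of miR-181a-1-3p sit at 29.6 to 55.9 CPM, above all other libraries, while siCtrl replicate 1 sits among the SFPQ siRNA libraries for miR-181a-5p and miR-181b-5p.

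SFPQ knockdown was compared with siCtrl to ask which arms and clusters respond to loss of SFPQ. Of the 9 tested products 7 rose and none fell, at an adjusted p under 0.05 over all 626 miRNAs. Over all tested miRNAs 25.6% were called higher and 22.7% lower. The median log2 fold change of the 9 was 1.38, and that of all 626 was 0.02. In terms of separable signals, 5 of 6 were higher. In such bulk samples, a change in the RNA per cell and a change in the make-up of the culture cannot be told apart.

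The largest change was in miR-181a-1-3p and miR-181c-3p, the 3p products of MIR181A1 and MIR181C. miR-181a-1-3p was at 4.50, 1.66 and 2.20 CPM in siCtrl replicates 1 to 3. With siSFPQ-2 it was at 41.3, 55.9 and 29.6 CPM, and with siSFPQ-3 at 32.4, 38.8 and 30.8 CPM. All 6 knockdown libraries lay above every siCtrl library, and no value lay between 4.50 and 29.6 CPM. A lack of overlap in the upward direction, with a gap of any size, was seen for 19.8% of all tested miRNAs. The log2 fold change was 3.74 ± 0.37 (SE, n = 6 against 3, adjusted p = 1.91e-08, edgeR's quasi-likelihood test) for miR-181a-1-3p. It was 3.66 ± 0.38 (adjusted p = 3.58e-08, the same edgeR test) for miR-181c-3p, whose reads cannot be told from those of miR-181a-1-3p. Without siCtrl replicate 1 the values were 4.27 and 4.26.

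miR-181c-5p, the 5p product of MIR181C and the 1 tested signal of the chromosome 19 cluster alone, rose less. It was at 3.00, 3.32 and 1.65 CPM in siCtrl, 5.73, 11.99 and 8.42 CPM with siSFPQ-2, and 6.33, 6.58 and 5.17 CPM with siSFPQ-3. Again all 6 knockdown libraries lay above every siCtrl library. Its log2 fold change was 1.38 ± 0.33 (SE, adjusted p = 0.00134) and 1.41 without siCtrl replicate 1. The product was sparse, with 365 counts over all 24 libraries.

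miR-181a-2-3p, the 3p product of MIR181A2 and the signal of the chromosome 9 cluster alone, was at 66.0, 23.9 and 18.2 CPM in siCtrl. It was at 85.7, 85.5 and 44.7 CPM with siSFPQ-2 and at 126, 139.9 and 85.8 CPM with siSFPQ-3. Of the 6 knockdown libraries 5 lay above every siCtrl library, and siSFPQ-2 replicate 3 lay below siCtrl replicate 1. This gave a log2 fold change of 1.34 ± 0.32 (SE, adjusted p = 0.00164). It was 2.07 without siCtrl replicate 1 (adjusted p = 5.33e-06).

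The 3p products of the miR-181b hairpins also rose. miR-181b-1-3p was at 1.87, 2.66 and 3.30 CPM in siCtrl, 11.2, 6.63 and 2.93 CPM with siSFPQ-2, and 11.8, 8.99 and 5.94 CPM with siSFPQ-3. Only siSFPQ-2 replicate 3 fell within the siCtrl range. The log2 fold change was 1.61 ± 0.43 (SE, adjusted p = 0.00372) for miR-181b-1-3p and 1.49 ± 0.44 (adjusted p = 0.00773) for miR-181b-2-3p. Without siCtrl replicate 1 these were 1.38 (adjusted p = 0.0295) and 1.34 (adjusted p = 0.0420).

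The abundant 5p products were the ones for which siCtrl replicate 1 mattered most. miR-181a-5p, summed over MIR181A1 and MIR181A2, was at 83.2, 26.9 and 17.6 CPM in siCtrl. It was at 64.9, 101.6 and 58.6 CPM with siSFPQ-2 and at 92.5, 124.9 and 68.5 CPM with siSFPQ-3. Only 3 of the 6 knockdown libraries lay above every siCtrl library, since replicate 1 was 3.09 times the higher of the other two siCtrl libraries. The log2 fold change was 0.98 ± 0.37 (SE, adjusted p = 0.0306). It was 1.87 without siCtrl replicate 1 (adjusted p = 1.45e-04). The call was lost without siCtrl replicate 2 (0.73, adjusted p = 0.146), without siCtrl replicate 3 (0.59, adjusted p = 0.205), without siSFPQ-2 replicate 2 (0.83, adjusted p = 0.0752), without siSFPQ-3 replicate 2 (0.82, adjusted p = 0.0785), and when only the compared groups were fitted (0.92, adjusted p = 0.120).

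miR-181b-5p, with which miR-181d-5p moved in parallel, was at 139, 28.2 and 23.7 CPM in siCtrl. It was at 92.0, 121 and 60.4 CPM with siSFPQ-2 and at 156, 160.7 and 91.5 CPM with siSFPQ-3. siCtrl replicate 1 was 4.92 times the higher of the other two siCtrl libraries, and only 2 of the 6 knockdown libraries lay above it. The log2 fold change of 0.80 ± 0.40 (SE, 95% interval -0.02 to 1.62) did not pass the test (adjusted p = 0.101), nor did that of miR-181d-5p, at 0.81 ± 0.41 (adjusted p = 0.105). Without siCtrl replicate 1 both passed, at 2.05 (adjusted p = 1.27e-05) and 2.12 (adjusted p = 1.38e-05). Leaving out that library thus brought the count to 9 of 9 products, whereas leaving out siCtrl replicate 2 or replicate 3 brought it to 6. For miR-181b-5p siCtrl replicates 2 and 3 lay below every ASO-Ctrl library, which were at 48.5 to 80.4 CPM. A count of 9 was also reached when libraries were scaled by their totals or by the spike-in oligonucleotides. The log2 fold changes were then 1.31 and 1.09 for miR-181b-5p and 1.33 and 1.11 for miR-181d-5p. The median log2 fold change of all tested miRNAs was then 0.47 and 0.21, against 0.02 with TMM. The calls over all miRNAs were 252 higher and 67 lower with library totals and 184 higher and 91 lower with the spike-ins, against 160 higher and 142 lower with TMM. With no filter on low counts 9 products were also called higher. All 9 products had a positive log2 fold change under each scaling tried.

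Each SFPQ siRNA was also compared alone with siCtrl. With siSFPQ-2 6 of 9 products rose, against 23.2% of all tested miRNAs, and with siSFPQ-3 8 of 9 rose, against 22.7%. In terms of separable signals these were 4 of 6 and 5 of 6. miR-181a-5p was at 0.81 with siSFPQ-2 (adjusted p = 0.122) and at 1.15 with siSFPQ-3 (adjusted p = 0.0254) on the log2 scale. In a direct comparison of siSFPQ-3 with siSFPQ-2, 0 of 9 products passed the edgeR test (0 of 9 also at an unadjusted p under 0.05), and 0.639% of all tested miRNAs did. The largest of these differences was 0.70 for miR-181a-2-3p, with a 95% interval of -0.01 to 1.41.

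NONO knockdown was compared with the same siCtrl libraries, so its values and those of the SFPQ comparison share their controls. Of the 9 tested products 1 fell, miR-181b-1-3p, and none rose, while 0.639% of all tested miRNAs were called lower and 0.958% higher. In terms of separable signals 0 of 6 were lower, because miR-181b-2-3p, whose reads cannot be told from those of miR-181b-1-3p, did not pass. The median log2 fold change of the 9 was -0.75, and that of all 626 was 0.01. Without siCtrl replicate 1, log2 fold changes were below 0 only for miR-181a-2-3p, miR-181b-1-3p and miR-181b-2-3p. The others then ran from 0.33 to 0.85. miR-181b-1-3p was at 0.27, 0.47 and 0.00 CPM with siNONO-3 and at 0.79, 0.74 and 1.24 CPM with siNONO-4. All 6 values lay below every siCtrl library, as they did for miR-181b-2-3p, and this was so for 1.92% of all tested miRNAs. The log2 fold change was -2.38 ± 0.61 (SE, adjusted p = 0.0457) for miR-181b-1-3p and -1.97 ± 0.57 (adjusted p = 0.0742) for miR-181b-2-3p. Leaving out siCtrl replicate 1 gave -2.63 (adjusted p = 0.0605) and -2.14 (adjusted p = 0.0822). miR-181b-2-3p passed with no filter on low counts (adjusted p = 0.0361) and with DESeq2 (adjusted p = 0.0260).

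These values rest on few reads. miR-181b-1-3p had 19 counts over the 3 siCtrl libraries, 2 with siNONO-3 and 9 with siNONO-4. The ratio to siCtrl was 0.0906 for siNONO-3 (exact 95% interval for counting error only, 0.0102 to 0.376) and 0.345 for siNONO-4 (0.138 to 0.801). The call of miR-181b-1-3p was lost when any 1 of the 9 siCtrl, siNONO-3 or siNONO-4 libraries was left out, with adjusted p-values of 0.0568 to 0.182 and log2 fold changes of -2.68 to -2.15. It was also lost with RLE size factors (adjusted p = 0.0501), with spike-in scaling (adjusted p = 0.0806). When only the compared groups were fitted, neither miR-181b-1-3p nor miR-181b-2-3p passed the filter on low counts, so neither was tested there. Both were kept in the fit of all groups through libraries outside this comparison.

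miR-181a-2-3p, the signal of the chromosome 9 cluster, was lowest of all groups with siNONO-3, at 13.7, 12.8 and 11.8 CPM, followed by siNONO-4 at 21.9, 24.4 and 22.3 CPM. The siNONO-3 libraries lay below every siCtrl library, whereas the siNONO-4 libraries lay within the siCtrl range. The pooled log2 fold change of -1.08 ± 0.31 (SE) did not pass (adjusted p = 0.0742). It passed at -1.35 without siCtrl replicate 2 (adjusted p = 0.0283) and at -1.44 without siCtrl replicate 3 (adjusted p = 0.0107), but was -0.37 without siCtrl replicate 1 (adjusted p = 0.459). It also passed with no filter on low counts (-1.09, adjusted p = 0.00734), at a mean of at least 10 CPM (-1.18, adjusted p = 0.0412) and with DESeq2 (-1.14, adjusted p = 0.0164).

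The other products did not pass with NONO knockdown. miR-181a-5p was at 21.5, 23.7 and 20.1 CPM with siNONO-3 and at 26.9, 51.4 and 42.1 CPM with siNONO-4. Its log2 fold change was -0.54 ± 0.35 (SE, adjusted p = 0.638) and turned to 0.33 without siCtrl replicate 1. miR-181b-5p and miR-181d-5p were at -0.75 ± 0.38 and -0.78 ± 0.39, and turned to 0.49 and 0.51 without that library. For these 3 products the direction with NONO knockdown thus turned with 1 control library. miR-181a-1-3p was at 0.33 ± 0.40 and miR-181c-3p at 0.27 ± 0.41, and each was at 0.85 without siCtrl replicate 1. Both turned negative without siNONO-3 replicate 1, at -0.13 and -0.20, and without siCtrl replicate 2, at -0.01 and -0.10. miR-181c-5p was at 0.34 ± 0.35 (adjusted p = 0.852), and at 0.35 without siCtrl replicate 1.

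With siNONO-3 alone against siCtrl, 2 of the 9 products fell, against 0.639% of all tested miRNAs called lower. These were miR-181a-2-3p, which fell by 1.501 ± 0.38 (SE, adjusted p = 0.0320), and miR-181b-1-3p (adjusted p = 0.0320). In terms of separable signals 1 of 6 was lower. With siNONO-4 0 of 9 passed the edgeR test, with 2 at an unadjusted p under 0.05, against 0.958% of all tested miRNAs called. A direct comparison of siNONO-4 with siNONO-3 gave 0 of 9 products and 0% of all tested miRNAs called, with 2 products at an unadjusted p under 0.05. miR-181a-5p was 0.88 higher on the log2 scale with siNONO-4 (95% interval 0.01 to 1.75), and miR-181a-2-3p 0.83 higher (0.04 to 1.62).

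NEAT1 knockdown was compared with ASO-Ctrl, which shares no library with the comparisons above. None of the 9 products passed, nor did any of the 626 miRNAs (0% called), in edgeR's quasi-likelihood test or in DESeq2, with 0 products and 19 miRNAs at an unadjusted p under 0.05 in edgeR. miR-181a-1-3p was at 5.65, 6.255 and 6.247 CPM in ASO-Ctrl, 6.11, 3.67 and 7.02 CPM with ASO-NEAT1-1047, and 5.24, 4.38 and 4.96 CPM with ASO-NEAT1-1473. Its log2 fold change was -0.21 ± 0.32 (SE, 95% interval -0.88 to 0.46). miR-181a-2-3p was at 37.0, 39.1 and 29.5 CPM in ASO-Ctrl and at 26.2 to 45.4 CPM over the 6 knockdown libraries, with a log2 fold change of -0.06 (95% interval -0.69 to 0.58). miR-181a-5p was at -0.24 (95% interval -0.96 to 0.48), and miR-181b-5p at -0.09 (-0.88 to 0.70). Each NEAT1 ASO taken alone gave 0 of 9 products and 0% of all tested miRNAs called in the edgeR test, with 0 products at an unadjusted p under 0.05, and so did the direct comparison of the NEAT1 ASOs. For miR-181a-1-3p the upper bound of 0.46 lies under the log2 fold change of 3.74 seen with SFPQ knockdown.

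**Figure D3:**
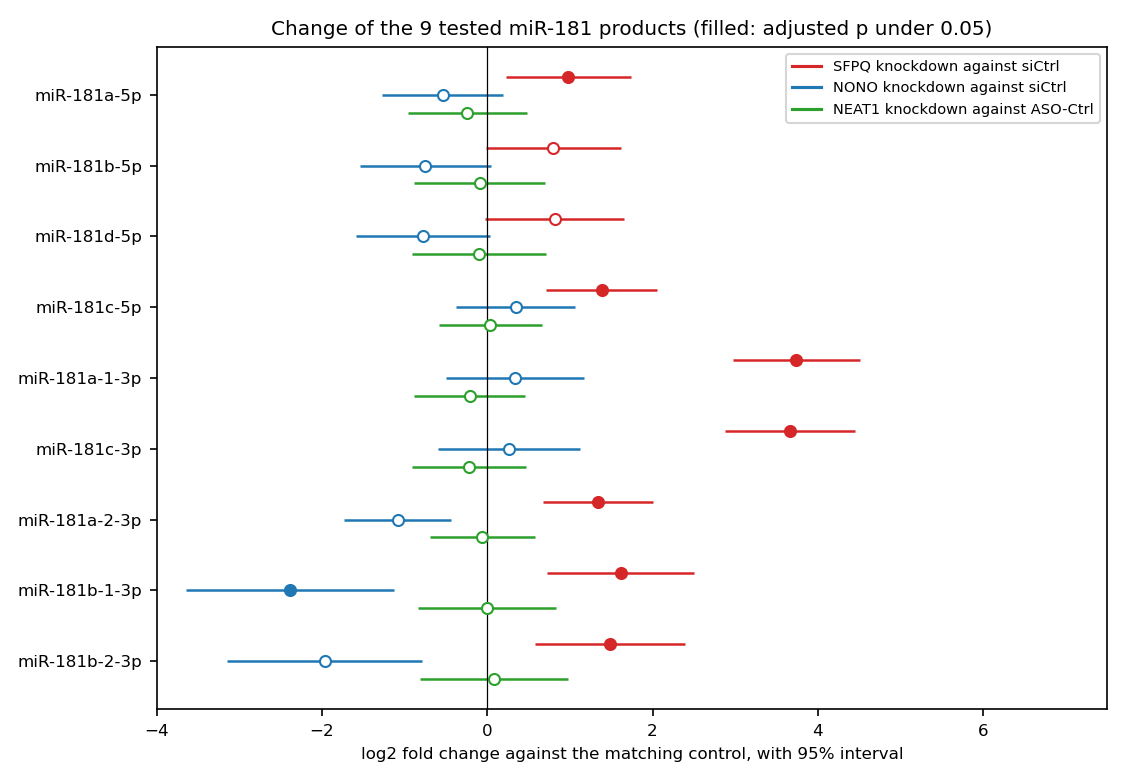
Log2 fold changes with 95% intervals of the 9 tested products in the SFPQ (red), NONO (blue) and NEAT1 (green) comparisons, filled where the adjusted p was under 0.05. The red points of miR-181a-1-3p and miR-181c-3p lie at 3.74 and 3.66, and the green points lie within 0.25 of 0.

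The differences between knockdowns were tested in the same edgeR model. Each of the 9 tested products, or 6 of 6 separable signals, was higher with SFPQ than with NONO knockdown, against 29.7% of all tested miRNAs. This contrast uses no siCtrl library. For 8 of the 9 products all 6 SFPQ siRNA libraries lay above all 6 NONO siRNA libraries, which held for 19.5% of all tested miRNAs. The exception was miR-181c-5p, with 5 of 6. Log2 differences ran from 1.04 ± 0.24 (SE) for miR-181c-5p to 4.0 ± 0.43 for miR-181b-1-3p. Those of miR-181a-5p and miR-181b-5p were 1.52 ± 0.29 and 1.55 ± 0.32. The value of miR-181b-1-3p rests on only 2 counts with siNONO-3 and 9 with siNONO-4. A contrast of the SFPQ effect minus the NEAT1 effect, added after the first results were seen, was positive at an adjusted p under 0.05 for 4 of 9 products, against 12.1% of all tested miRNAs. They were miR-181a-1-3p (3.95), miR-181c-3p (3.88), miR-181a-2-3p (1.40) and miR-181c-5p (1.35). In terms of separable signals this was 3 of 6. Between the control groups themselves 0 of 9 products passed the edgeR test, with 2 at an unadjusted p under 0.05, against 0.479% of all tested miRNAs called. miR-181a-1-3p was 1.098 higher in ASO-Ctrl than in siCtrl on the log2 scale (95% interval 0.22 to 1.98, adjusted p = 0.565).

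The balance of the arms was followed through the 3p product per 100 counts of the 5p product of the same hairpin, and tested with limma as log2 CPM of the 3p minus the 5p product over the 200 hairpins with both arms tested. Both arms were tested for MIR181A1, MIR181A2, MIR181B1, MIR181B2 and MIR181C. Because the 5p products of MIR181A1 and MIR181A2 share their reads, as do those of the miR-181b hairpins, these ratios compare each 3p product with a 5p pool. The 3p product of MIR181A1 was at 5.41 to 12.5 per 100 5p counts in siCtrl, at 50.6 to 63.7 with siSFPQ-2 and at 31.1 to 44.9 with siSFPQ-3. No library of the other 6 groups reached the SFPQ siRNA range, the nearest being siNONO-3 replicate 1 at 23.8. For MIR181C the values were at most 162 in siCtrl, 343 to 737 with siSFPQ-2 and 500.0 to 580.0 with siSFPQ-3. The 3p product thus passed from near parity with miR-181c-5p to several times its count, with the reservation that the 3p reads cannot be told from those of MIR181A1.

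With SFPQ knockdown the log2 arm difference moved toward the 3p product by 2.31 ± 0.35 (SE, adjusted p = 8.90e-05, limma) in MIR181A1 and by 2.24 ± 0.36 (adjusted p = 1.50e-04) in MIR181C. Without siCtrl replicate 1 these were 2.03 and 2.52. Over the 200 hairpins 17.5% moved toward the 3p and 8% toward the 5p product at an adjusted p under 0.05, and the median shift was 0.13. MIR181A1 and MIR181C ranked 3 and 5 of 200, and the upper 5% of hairpins began at 1.54. Their 3p reads cannot be told apart, so these shifts share 1 3p signal and are not separate results. The 5p product of MIR181A1 is also pooled with that of MIR181A2. Whether the arms changed within either hairpin was therefore not tested. The other 3 hairpins did not pass. MIR181A2, the partner of MIR181A1 in the other cluster, had 79.3 to 103 3p counts per 100 5p counts in siCtrl and 76.3 to 136 with the SFPQ siRNAs, a shift of 0.27 ± 0.21 (95% interval -0.17 to 0.70), and of 0.18 without siCtrl replicate 1. MIR181B1 shifted by 0.08 ± 0.52 and MIR181B2 by -0.01 ± 0.52, and both were at -0.89 without siCtrl replicate 1.

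**Figure D4:**
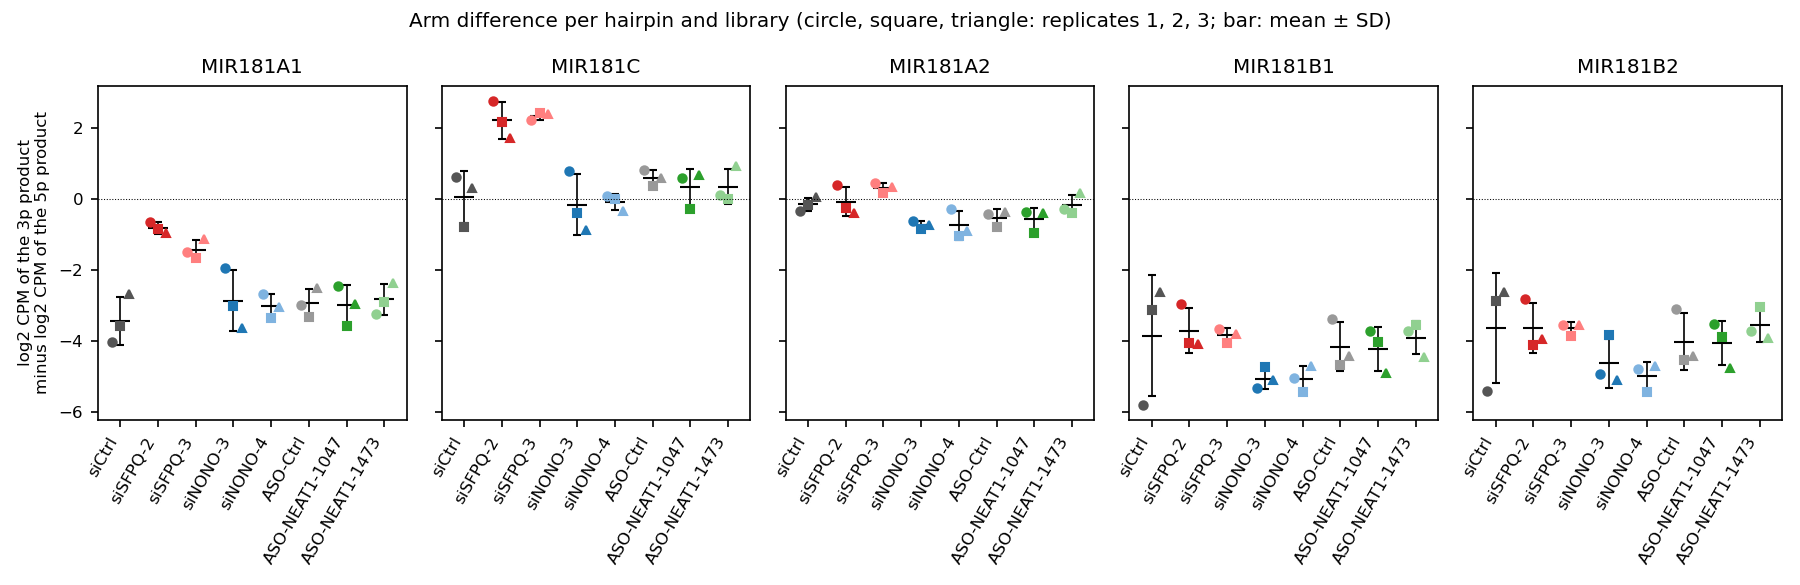
Log2 CPM of the 3p minus the 5p product (a prior count of 2 added) in each library, for the 5 miR-181 hairpins with both arms tested, with points for libraries and bars for mean ± SD (n = 3). The SFPQ siRNA libraries of MIR181A1 and MIR181C sit above all others, and siCtrl replicate 1 sits below the other siCtrl libraries for MIR181B1 and MIR181B2.

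**Figure D5:**
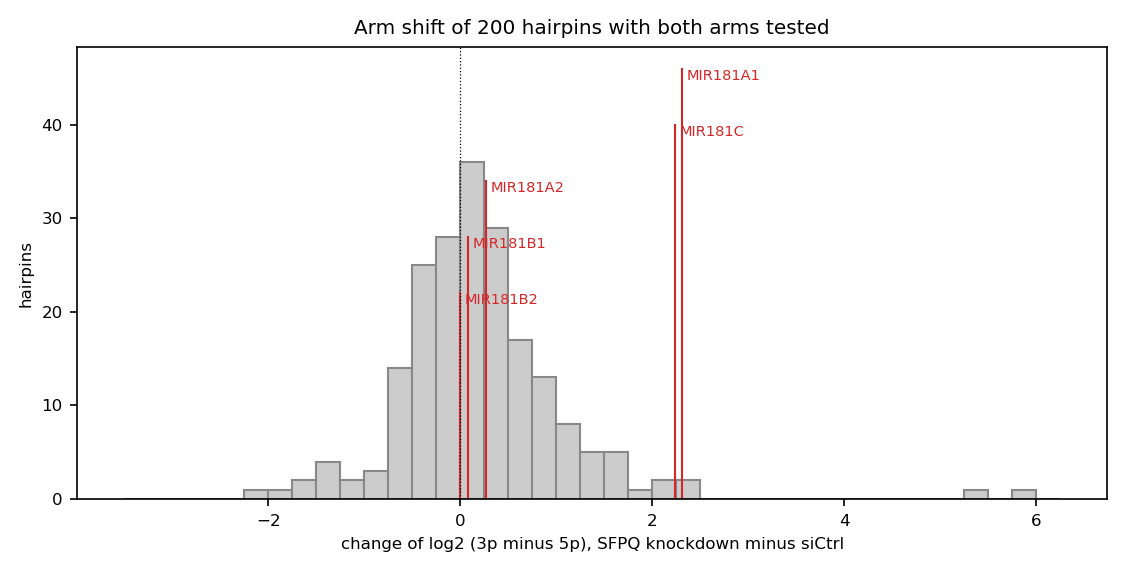
Histogram of the arm shift with SFPQ knockdown, in log2 units, over 200 hairpins, in steps of 0.25, with the miR-181 hairpins marked by red lines whose height has no meaning. MIR181A1 and MIR181C, whose 3p reads cannot be told apart, lie at 2.31 and 2.24, in the upper tail. The other 3 miR-181 hairpins lie near the centre.

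With NONO knockdown 0 of 200 hairpins passed in limma, with 22 of them at an unadjusted p under 0.05, among these MIR181A2, MIR181B1 and MIR181B2. MIR181B1 and MIR181B2 had the lowest differences of all 200, at -1.21 ± 0.52 (SE, adjusted p = 0.318) and -1.17 ± 0.52 (adjusted p = 0.360). Their 3p products were at 1.35 to 14.0 and 1.89 to 14.0 per 100 5p counts in siCtrl, where the lowest value of each was in replicate 1, and at 0.00 to 2.56 and 0.00 to 4.92 with the NONO siRNAs. Without siCtrl replicate 1 both passed, at -2.17 (adjusted p = 0.00559) and -2.05 (adjusted p = 0.0211), and they were then the 2 hairpins that passed. Their 3p reads cannot be told apart and they share their 5p product, so they count as 1 signal. Those 3p products had only 2 to 10 counts a group with the NONO siRNAs. MIR181A2 was at -0.59 ± 0.21 (adjusted p = 0.287), with 47.4 to 81.4 3p counts per 100 5p counts against 79.3 to 103 in siCtrl. It was at -0.68 without siCtrl replicate 1. MIR181A1 and MIR181C were at 0.49 ± 0.35 and -0.16 ± 0.36, and at 0.21 and 0.12 without that library. With NEAT1 knockdown 0 of 200 hairpins passed in limma, with 6 at an unadjusted p under 0.05, none of them of this family, and the 5 miR-181 hairpins lay between -0.25 and 0.21.

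Matching products of different clusters were compared within each library as a difference of log2 CPM, with an exact two-sided permutation test of 6 knockdown against 3 control libraries. There were 15 tests, the smallest p such a test allows is 0.0238, and none passed Benjamini-Hochberg adjustment. A single p of 0.0238 cannot pass over 15 tests, so the adjusted values cannot decide on a pair taken alone. The 15 also include pairs of products whose reads cannot be told apart. miR-181a-1-3p minus miR-181a-2-3p, the 3p products of the MIR181A1 and MIR181A2 hairpins, was -3.29 ± 0.50 (SD, n = 3) in siCtrl and -1.24 ± 0.59 (SD, n = 6) with the SFPQ siRNAs. The groups did not overlap, and the shift of 2.04 had the smallest possible p (exact permutation p = 0.0238, adjusted p = 0.179). miR-181c-3p minus miR-181a-2-3p shifted by 2.00 with the same p. The shifts were 1.84 and 1.82 without siCtrl replicate 1 (adjusted p = 0.357 for both, exact permutation test). With siCtrl replicates 2 and 3 as the only controls, this test cannot give a p under 0.05. Its adjusted p-values without replicate 1, here and for NONO below, therefore decide nothing. miR-181c-5p minus miR-181a-5p shifted by 0.02 (exact permutation p = 0.929), and by -0.52 without siCtrl replicate 1. With NONO knockdown miR-181a-1-3p minus miR-181a-2-3p was -2.21 ± 0.51 (SD, n = 6), a shift of 1.08 (exact permutation p = 0.0476, adjusted p = 0.179), or of 0.88 without siCtrl replicate 1 (adjusted p = 0.429). With NEAT1 knockdown it shifted by -0.13 (exact permutation p = 0.690).

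Outside the family, the miRNAs whose log2 CPM most resembled each product over the 8 group means were picked from 389 candidates with a mean of at least 10 CPM. These correlations are a description of 8 points that share libraries and the high SFPQ siRNA groups. For miR-181a-1-3p and miR-181c-3p they were miR-21-3p (Pearson r = 0.98 for both), miR-4677-5p (0.97) and miR-2355-3p (0.97). miR-21-3p is the 3p product of the hairpin whose 5p product, miR-21-5p, is a well-known oncogenic miRNA, and it rose by 3.25 ± 0.22 (SE, adjusted p = 1.15e-10) on the log2 scale with SFPQ knockdown. For miR-181b-1-3p and miR-181b-2-3p the nearest was miR-21-5p itself (0.95 and 0.96), followed by miR-135a-5p and miR-135b-5p for the first and by miR-424-5p and miR-542-3p for the second. miR-542-5p was among the nearest 3 for miR-181a-5p (0.97), miR-181a-2-3p (0.96), miR-181b-5p (0.98) and miR-181d-5p (0.98), with miR-132-5p or miR-135b-5p and miR-30d-3p beside it. miR-181c-5p was most like miR-744-5p (0.93), miR-23b-3p (0.92) and miR-23a-3p (0.91).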

How the data were processed

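The deposited tables hold raw counts per mature miRNA position and per spike-in, which the authors obtained by running featureCounts 2.0.3, as recorded per the file headers. Bowtie 1.3.0, Trimmomatic 0.39, DESeq2 1.38.1, UMI-tools 1.1.1 and hg38 are listed in the submitters' processing notes. Per the labels' protocols, a QIAseq kit with molecular identifiers was used. Collapsing of identifiers is not stated in any source used here, and the exact intervals of count ratios therefore cover counting error only. The other 95% intervals are from edgeR or limma and rest on the spread between libraries. Groups and replicate numbers came from sample titles.

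For a miRNA with several positions, the position with the largest total was used. edgeR 4.0.16 (R 4.3.3, filterByExpr with a minimum count of 10, TMM, 1 term per group over 24 libraries, 16 residual degrees of freedom) gave quasi-likelihood tests with Benjamini-Hochberg adjustment over 626 miRNAs. A knockdown was the mean of both reagents minus its control. Unless limma or a permutation test is named, adjusted p-values are from edgeR. limma 3.58.1 tested arm differences over 200 hairpins, on log2 CPM with a prior count of 2. The scripts were tested on simulated data. Alternatives were RLE, library-total and spike-in scaling, a minimum mean of 10 CPM, no filter, sums over positions, a prior count of 0.5, DESeq2 1.42.0, a replicate block, only the compared groups, and leaving out each library. Named were the 10 products, any miRNA with the miR-181a-5p seed, members of 2 marker lists (up to 3 by lowest p), and for each tested product the 3 most alike miRNAs. Members and lists were chosen with earlier results of these data known.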

Additional observations from a re-analysis of the deposited data

How the results depend on the processing

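With SFPQ knockdown the count of products called was 6 to 9 in the fits that each left out 1 library, and 4 of 6 tested at a mean of at least 10 CPM, where 33 hairpins changed arm balance. With NONO knockdown, 10 miRNAs were called; there were 21 with library totals (17 higher and 4 lower, against 6 and 4), 6 with spike-in totals, 19 with no filter, 18 with sums over positions, 20 with DESeq2, 3 when only the compared groups were fitted, and 6 to 16 in the leave-one-out fits. The count of miR-181 products called with NONO knockdown was 0 with RLE size factors, spike-in totals or only the compared groups (7 products tested), 3 with no filter or DESeq2, and 0 to 1 in the leave-one-out fits, in which the count of hairpins was 0 to 2. In the SFPQ and NONO comparisons replicate numbers showed no pairing of knockdown libraries with siCtrl libraries. Same-number correlations were -0.29 to 0.19 and different-number ones -0.25 to 0.35. On the second principal component, however, values rose with replicate number in each SFPQ and NONO siRNA group. They were -0.25, -0.24 and 1.75 with siSFPQ-3 and -3.92, 4.72 and 6.86 with siNONO-4. Pairing of SFPQ with NONO siRNA libraries was not tested, and their direct contrast was fitted without a replicate block. In the NEAT1 comparison same-number correlations were -0.14 to 0.62 and different-number ones -0.66 to 0.41. Whether replicate numbers pair libraries there was not tested. A replicate block gave 24 miRNAs and 2 products for NONO (miR-181b-1-3p and miR-181b-2-3p, adjusted p = 0.0180 for the second), 318 miRNAs and 7 products for SFPQ, and 0 for NEAT1.

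Sign changes were found for values that had not passed. With NEAT1 knockdown miR-181b-1-3p was at 0.021 with RLE, 0.00039 with library totals, 0.0047 with spike-in totals, 0.013 with the replicate block and 0.027 with DESeq2. The MIR181B2 arm shift with SFPQ knockdown was 0.088 at a prior count of 0.5. Leave-one-out ranges of log2 fold changes that crossed 0 were, with NONO knockdown, -0.13 to 0.85 for miR-181a-1-3p, -0.20 to 0.85 for miR-181c-3p, -0.95 to 0.33 for miR-181a-5p, -1.18 to 0.49 for miR-181b-5p and -1.22 to 0.51 for miR-181d-5p. With NEAT1 knockdown they were -0.20 to 0.034 for miR-181a-2-3p, -0.25 to 0.43 for miR-181b-1-3p, -0.22 to 0.63 for miR-181b-2-3p, -0.18 to 0.12 for miR-181b-5p, -0.064 to 0.21 for miR-181c-5p and -0.20 to 0.11 for miR-181d-5p. Leave-one-out arm shifts crossed 0 with NEAT1 knockdown for MIR181A1 (-0.16 to 0.25), MIR181B1 (-0.16 to 0.48) and MIR181B2 (-0.056 to 0.66), with SFPQ knockdown for MIR181B1 (-0.89 to 0.70) and MIR181B2 (-0.89 to 0.51), and with NONO knockdown for MIR181C (-0.58 to 0.12). Of the cluster pairs, miR-181a-1-3p minus miR-181a-2-3p ranged from -0.23 to 0.011 for NEAT1, miR-181c-5p minus miR-181a-5p from -0.52 to 0.35 for SFPQ, miR-181b-1-3p minus miR-181b-2-3p from -0.12 to 0.089 for NONO, and miR-181d-5p minus miR-181b-5p from -0.033 to 0.0049 for NEAT1 and from -0.024 to 0.018 for NONO. The cause of these changes was not tested beyond the library left out. At 2 to 19 counts a group in siCtrl and with the NONO siRNAs, the depth limits what can be said of miR-181b-1-3p with NONO knockdown.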
